A study of Homo sapiens with 72 samples.

Results

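G3BP1, its paralog G3BP2 and the processed pseudogene G3BP1P1 were followed through 11 comparisons of a human series on RNA binding by G3BP1. They were taken by gene symbol and are 3 of the 61541 genes listed in each of the authors' deposited tables (G3BP1, ENSG00000145907; G3BP2, ENSG00000138757; G3BP1P1, ENSG00000235651). Of the 72 samples, 24 enter these tables and 48 were not analysed here. U2OS, a human osteosarcoma cell line, was used for RNA sequencing, and each of its groups has 2 libraries. In the first experiment the groups were wild-type cells, cells labelled as a G3BP1 and G3BP2 double knockout (genotype G3BP1/2 knockout), and the same knockout 24 h after Lipofectamine transfection of a G3BP1 transgene, called G3BP1 rescue here. The second experiment used the knockout genotype throughout: untransfected cells, cells 24 h after Lipofectamine transfection of wild-type G3BP1, and cells 24 h after transfection of G3BP1 lacking its NTF2 domain. Each of these 3 was sequenced untreated and after 2 h in 200 uM sodium arsenite. RNA immunoprecipitation (RIP) used Flp-In T-REx 293, an embryonic kidney line with stable FLAG-G3BP1, after 24 h of induction by tetracycline at 1 ug/mL. Its 3 immunoprecipitates (IP) were compared with 3 inputs. No group analysed here received a mock transfection, so the transgene and the transfection cannot be told apart. How the knockout was made, and whether it is 1 clone, is not given in the sources used here.

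G3BP1 and G3BP2 are cytoplasmic RNA-binding proteins that nucleate stress granules, the assemblies of RNA and protein that form when translation initiation is blocked, as by arsenite. Both carry an N-terminal NTF2-like domain, through which they dimerise and bind partners such as CAPRIN1 and USP10, and C-terminal RRM and RGG regions that bind RNA. Either paralog can serve as the granule scaffold, and cells without both fail to form granules under arsenite. A processed pseudogene arises from a reverse-transcribed mRNA, so reads given to G3BP1P1 or to G3BP1 cannot be parted with certainty, and a transgene adds reads to the same sequences.

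Whole reads per library were worked out for every gene of both U2OS experiments from the base means of the authors' deposited tables, as described under the processing. First-experiment libraries held 38.6 to 52.5 M (1000000) gene reads, and second-experiment libraries held 10.8 to 27.8 M. Levels are given in RPM, reads per 1000000 gene reads of a library, deeper library first, and are not set against each other between genes because transcript lengths were not used. The U2OS markers VIM, SPARC, COL1A1, CDH2 and RUNX2 were present in every U2OS library, and the leukocyte marker PTPRC and the hepatocyte marker ALB stayed under 1 RPM. EPCAM, listed with PTPRC and ALB as a marker of other cells, was read in every U2OS library. It stood at 7.20 to 12.1 RPM in the first experiment and at 2.73 to 9.51 RPM in the second. RUNX2 went down to 4.49 RPM in the second experiment, within the range of EPCAM. In the RIP table the kidney-line markers LIN28B and CDH2 were present (base means 1164 and 785), while PAX2 and NEFM were low (45.8 and 4.87). CDH2 is on both lists, and LIN28B was also read in U2OS, at 13.9 to 33.3 and 30.8 to 50.8 RPM in the first and second experiments. Of the other U2OS markers, SPARC, COL1A1 and RUNX2 had RIP base means of 32.0, 26.4 and 69.0, and VIM had 11619. In the RIP table EPCAM stood at 911, and PTPRC and ALB were at 0. Whether the libraries of a group came from separate cultures is not stated, so p-values measure only the spread between these libraries.

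The start of G3BP1 is shown because G3BP1 reads in untransfected knockout cells were lower with arsenite. RefSeq (GRCh38.p14) gives 1 start window for G3BP1, 5 for G3BP2 and none was used for G3BP1P1. The 250 bases before the G3BP1 start, chr5:151771704-151771953 on the plus strand, read 5′ to 3′ as follows, with each match to CCAAT on either strand in capitals.
G3BP1: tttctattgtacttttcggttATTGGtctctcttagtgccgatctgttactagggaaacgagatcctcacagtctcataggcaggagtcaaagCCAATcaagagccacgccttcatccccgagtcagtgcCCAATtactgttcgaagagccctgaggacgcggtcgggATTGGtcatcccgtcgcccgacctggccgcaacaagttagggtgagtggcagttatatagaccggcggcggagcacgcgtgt
This window held 4 matches to CCAAT, and 0.874% of the 35116 windows of that length held as many. At least 1 match was found in 32.0% of all windows, and in 2 of the 5 G3BP2 windows, which overlap and share that match. The GC box letters GGGCGG, found in 42.6% of windows, were in 3 of the 5 G3BP2 windows and not in that of G3BP1. One of them lies inside the window chr4:75673158-75673407 on the minus strand, 134 bases before the RefSeq start, in the 30 bases at chr4:75673278-75673307.
G3BP2: cggaggaaggGGGCGGcgagcaataagaac
Neither gene's windows held the heat shock element GAANNTTC (in 5.78% of windows), the antioxidant response element TGACNNNGC (10.9%) or the AP-1 letters TGANTCA (6.57%). All were searched on both strands, and none of the 5 motifs was masked where it overlapped another.

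G3BP1, the targeted gene, was still read in the knockout libraries of both experiments. In the first experiment it stood at 273 and 281 RPM in the knockout libraries (14342 and 10827 reads). Wild-type libraries held 417 and 408 RPM. G3BP1 rescue libraries held 437 and 435. The knockout libraries were the lowest and the rescue libraries the highest, and no 2 groups overlapped. Such separation was common, since 78.1% of genes did not overlap between knockout and wild type, 76.0% between knockout and rescue, and 75.0% between wild type and rescue. The transcript level does not show whether protein was lost, since the kind of edit is not given.

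In the authors' deposited table of knockout against wild type, G3BP1 was lower by a fold of 0.679, or -0.56 on the log2 scale (SE 0.05, adjusted p 1.01e-29). G3BP1 and G3BP2 were called lower and G3BP1P1 was not, where 37.8% of all tested genes were called in either direction and 19.4% lower. Against G3BP1 rescue, the authors' deposited table put G3BP1 in knockout cells at -0.69 (SE 0.04, adjusted p 4.74e-63), and 37.6% of genes were called there. Wild type against rescue was closer, with -0.15 for G3BP1 in the authors' deposited table (SE 0.04, adjusted p 0.00267), where 35.6% of genes were called. With Wald statistics scaled down by their spread over all tested genes, which real changes widen too, it did not pass (adjusted p 0.510). Of the 3, only this call was lost when 1 library was left out of a limma fit on the recovered reads. Its value ranged from -0.16 to -0.089, with an adjusted p of up to 0.200, and it was lost without either rescue library and without the shallower wild-type library.

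G3BP1 reads in the second experiment's rescues were far above those of the first experiment's rescue. Untreated knockout libraries held 290 and 292 G3BP1 RPM (3504 and 3149 reads). Wild-type rescue libraries held 40180 and 38323 RPM, and NTF2-deletion rescue libraries held 53210 and 51627. G3BP1 alone thus made up 3.83% to 5.32% of all gene reads in untreated rescue libraries. In bulk RNA, a larger share of transfected cells and more transgene RNA per cell cannot be told apart.

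**Figure D1:**
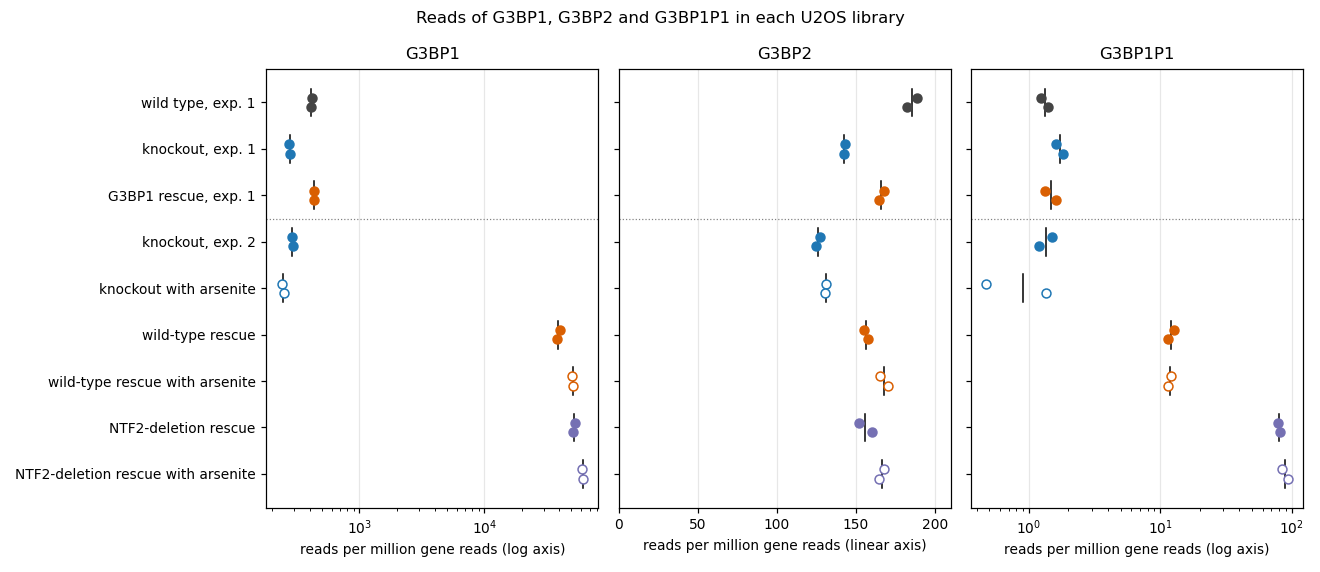
RPM (reads per 1000000 gene reads) of G3BP1 (log axis), G3BP2 (linear axis) and G3BP1P1 (log axis) in each of the 18 U2OS libraries. Points are libraries, open where arsenite was given, black ticks are group means and the dotted line parts both experiments. G3BP1 lies between 238 and 437 in libraries of the first experiment and of second-experiment knockout cells, and between 38323 and 62181 in the second experiment's rescues.

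In the authors' deposited tables, G3BP1 was raised by 7.31 with wild-type rescue (SE 0.04) and by 7.75 with NTF2-deletion rescue (SE 0.05) on the log2 scale, both with an adjusted p listed as 0. All 3 genes were called higher in both tables, where 23.0% and 22.8% of tested genes were called higher and 42.1% and 41.5% called in either direction. The same contrast in the first experiment, rescue over knockout, was 0.69, and the difference between the experiments was 6.62 (SE 0.06, adjusted p listed as 0, difference test between deposited fold changes). That test called 37.3% of 16369 genes.

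NTF2-deletion rescue held more G3BP1 reads than wild-type rescue. Wild-type minus NTF2-deletion rescue gave -0.44 (SE 0.06, adjusted p 1.54e-08) without arsenite and -0.26 (SE 0.06, adjusted p 0.00819) with it. These differences were taken between tables that share the knockout libraries, which makes the SE too large. Untreated, only 0.0185% of 16210 genes were called in this difference, 3 genes in all, namely G3BP1, G3BP1P1 and ENSG00000258628, each lower in wild-type rescue. With arsenite, 13 genes were called (0.0785%), G3BP1 and G3BP1P1 among them. On the recovered reads, limma called 150 genes in the untreated difference.

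Arsenite moved G3BP1 reads in opposite directions in knockout and rescued cells. In knockout cells G3BP1 went from 290 and 292 to 238 and 247 RPM. The authors' deposited table gave -0.24 (SE 0.07, adjusted p 0.00477), and 19.4% of tested genes were called there, and 10.9% of tested genes were called lower. The call ended when Wald statistics were scaled down by their spread over genes (adjusted p 0.256). With wild-type G3BP1 the treated libraries held 50370 and 51653 RPM. With the NTF2-deletion form they held 60820 and 62181. The authors' deposited tables gave 0.37 (SE 0.04, adjusted p 8.87e-20) and 0.23 (SE 0.03, adjusted p 2.12e-12) for these responses, where 8.18% and 2.43% of genes were called higher and 20.4% and 8.57% in either direction. In each of the 3 backgrounds the treated and untreated libraries did not overlap, as for 62.2%, 59.0% and 52.3% of genes.

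The responses in both rescues differed from that in knockout cells. Wild-type rescue minus knockout was 0.61 (95% interval 0.45 to 0.76, adjusted p 4.45e-12), a test that called 4.51% of genes. NTF2-deletion rescue minus knockout was 0.47 (0.32 to 0.62, adjusted p 5.16e-08), where 7.12% were called. Between the rescues the difference was 0.14 (0.04 to 0.23) and did not pass (adjusted p 0.484), in a test that called 0.328% of genes. Rescued cells hold transgene and endogenous reads together, and the tables do not part them. Against knockout cells that had also received arsenite, G3BP1 was higher by 7.98 with wild-type and by 8.24 with NTF2-deletion rescue, tests that called 45.4% and 43.4% of genes. Ordered by level, the second experiment ran from knockout with arsenite through knockout, wild-type rescue, wild-type rescue with arsenite and NTF2-deletion rescue to NTF2-deletion rescue with arsenite. In that order only wild-type rescue with arsenite and untreated NTF2-deletion rescue overlapped in RPM, and in reads over size factors these did not overlap either. The share of all genes separated in this way was not worked out for that pair. For the other neighbouring pairs it was 52.3% to 82.1%, so such separation was common.

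**Figure D2:**
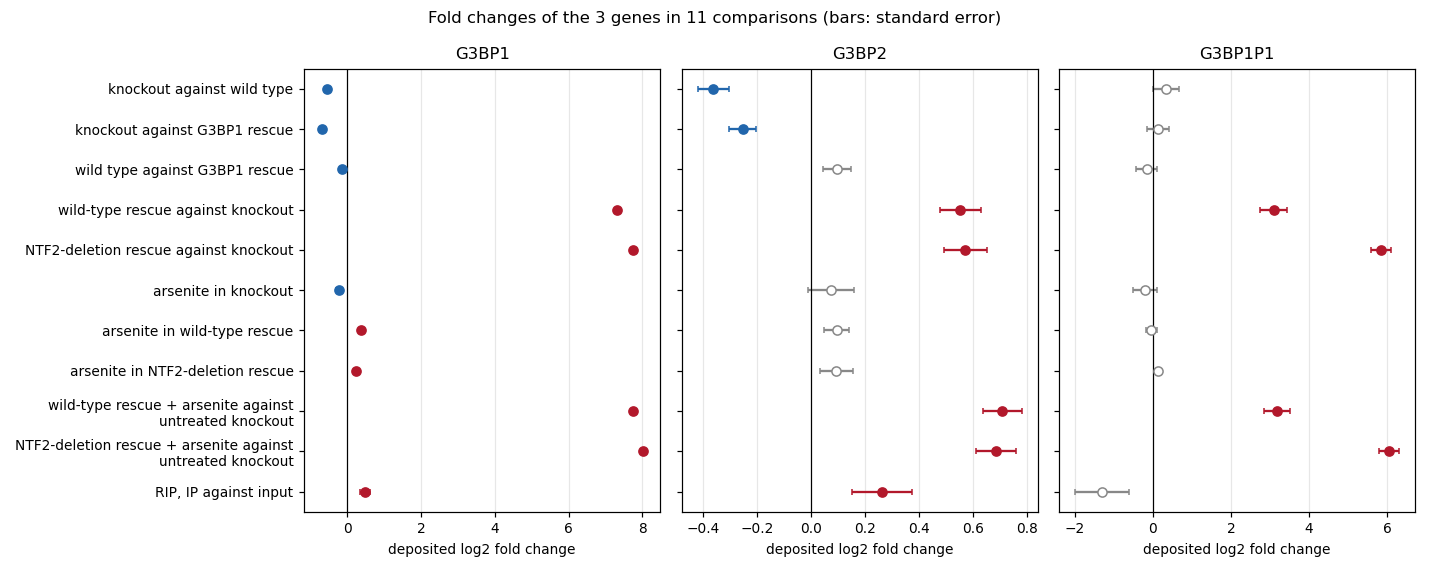
Log2 fold changes of G3BP1, G3BP2 and G3BP1P1 in the authors' deposited tables, with the authors' standard errors as bars and a separate axis for each gene. Filled red points were called higher, filled blue points lower, and open grey points did not pass. G3BP1 was called in all 11 tables (7 higher, 4 lower), while G3BP2 passed in 7 and G3BP1P1 in 4.

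G3BP2, the paralog, is also named in the knockout genotype. In the first experiment it stood at 143 and 142 RPM in knockout libraries (7507 and 5497 reads). Wild-type libraries held 189 and 182, and G3BP1 rescue libraries held 164 and 168. The order was knockout, rescue, wild type, with no overlap between groups, as for 76.0% of genes between knockout and rescue, 75.0% between rescue and wild type and 78.1% between knockout and wild type. In the authors' deposited table of knockout against wild type, G3BP2 was at -0.36 (SE 0.06, adjusted p 1.27e-09), a fold of 0.777. The authors' deposited table of knockout against G3BP1 rescue gave -0.25 (SE 0.05, adjusted p 1.59e-06), which did not pass with the scaled statistics (adjusted p 0.175). Between wild type and rescue the authors' deposited table gave 0.10 (SE 0.05, adjusted p 0.144), which did not pass. It passed after centring, at 0.14 with an adjusted p of 0.0222, and in limma, at 0.12 with an adjusted p of 0.0465.

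In the second experiment G3BP2 was higher in both rescues, whose transgene is G3BP1. Knockout libraries held 127 and 125 RPM. Wild-type rescue libraries held 155 and 158. NTF2-deletion rescue libraries held 152 and 160. The rescue libraries lay above the knockout libraries, as 82.1% and 81.4% of genes were separated in these contrasts, and both rescues overlapped each other. The authors' deposited tables put this rise at 0.55 (SE 0.08, adjusted p 5.58e-12) and 0.57 (SE 0.08, adjusted p 4.99e-12).

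The size of this rise depended on the scaling. The median gene, among those whose base mean was 100 or more, was itself at 0.18 and 0.17 in these tables, and relative to it G3BP2 rose by 0.38 and 0.41. From RPM the log2 ratio was 0.31 in both rescues. Both calls ended when Wald statistics were scaled down by their spread over genes (adjusted p 0.0549 and 0.0501). That spread, 2.64 and 2.61, includes real changes, in comparisons where 42.1% and 41.5% of genes were called. Limma on the recovered reads kept both calls, at 0.53 and 0.55 (adjusted p 2.36e-10 and 1.27e-10). Wild-type minus NTF2-deletion rescue was -0.02 for G3BP2 (95% interval -0.24 to 0.20, adjusted p 1.00). Both rescues were set against the same knockout libraries, so this interval is too wide. Limma on the recovered reads gave -0.02 (SE 0.05, adjusted p 0.922), and a difference within that error could not be seen. The rescue contrast was larger in the second experiment than in the first by 0.30 (SE 0.09, adjusted p 0.00434), and after centring by 0.17 with an adjusted p of 0.131.

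With arsenite G3BP2 stood at 131 RPM in both knockout libraries. Wild-type rescue with arsenite held 166 and 170, and NTF2-deletion rescue with arsenite held 168 and 165. These treated libraries lay above their untreated counterparts in all 3 backgrounds, a separation seen in 62.2%, 59.0% and 52.3% of genes, and no response passed. The authors' deposited tables gave 0.07 (SE 0.09, adjusted p 0.682), 0.09 (SE 0.05, adjusted p 0.148) and 0.09 (SE 0.06, adjusted p 0.491). The differences between the backgrounds were at most 0.02, with 95% intervals within -0.19 to 0.23, and none passed. Treated rescues against treated knockout cells gave 0.64 (SE 0.11, adjusted p 8.74e-08) for the wild-type and 0.61 (SE 0.11, adjusted p 5.61e-07) for the NTF2-deletion form. These difference tests called 45.4% and 43.4% of genes, and the shared knockout libraries make the SE too large. The size depends on the scaling here too. Against untreated knockout cells the median gene stood at 0.22 and 0.19 in the treated rescues and at -0.01 in treated knockout cells. Mean RPM was 168 and 166 against 131.

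The ratio of G3BP1 to G3BP2 reads within a library carries no scaling between libraries. It was 2.21 and 2.24 in wild-type cells, 1.91 and 1.97 in first-experiment knockout cells and 2.66 and 2.60 in G3BP1 rescue. In the second experiment it was 2.28 and 2.34 in knockout cells and 1.81 and 1.89 in knockout cells with arsenite. It reached 259 and 243 in wild-type rescue and 350 and 322 in NTF2-deletion rescue, and with arsenite 304 and 303 and 362 and 377. Within the first experiment the ratio was thus lowest in knockout and highest in rescued cells, and within the second it was lowest in knockout cells with arsenite.

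G3BP1P1, the pseudogene, carried few reads except in the second experiment's rescues. In the first experiment knockout libraries held 85 and 70 reads, wild-type libraries 56 and 60, and rescue libraries 80 and 66. In the authors' deposited tables no comparison of these groups passed for it, with log2 fold changes of 0.33 (knockout against wild type), 0.14 (knockout against rescue) and -0.16 (wild type against rescue). In RPM the knockout libraries, at 1.62 and 1.81, lay above wild type, at 1.24 and 1.40, where 78.1% of genes did not overlap between these groups. The rescue libraries held 1.61 and 1.34 RPM. In reads over size factors the deeper rescue library, at 75.2, lay within the knockout libraries, at 74.8 and 81.5.

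In the second experiment untreated knockout libraries held 18 and 13 G3BP1P1 reads. Wild-type rescue libraries held 182 and 158, and NTF2-deletion rescue libraries held 1227 and 1195. The authors' deposited tables gave log2 values of 3.10 (SE 0.35, adjusted p 5.77e-18) and 5.85 (SE 0.25, adjusted p 7.96e-116). These values were shrunk by the authors' fit, and the log2 ratios of group means of the recovered reads were 3.41 and 6.17. Wild-type minus NTF2-deletion rescue was -2.75 (SE 0.43, adjusted p 1.16e-06) without arsenite and -2.87 (SE 0.42, adjusted p 1.64e-07) with it.

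Arsenite left 6 and 17 G3BP1P1 reads in knockout cells, 337 and 218 in wild-type rescue, and 1367 and 1497 in NTF2-deletion rescue. In RPM these were 0.471 and 1.35, 12.1 and 11.4, and 84.6 and 93.2. The authors' deposited tables gave -0.20 in knockout cells with no adjusted p, -0.04 (adjusted p 0.906) with wild-type G3BP1 and 0.13 (adjusted p 0.408) with the NTF2-deletion form. In knockout cells limma gave -0.71 (adjusted p 0.0209), which rested on the library with 6 reads. Without that library the value was 0.0039, and without the library with 17 reads it was -1.43. At 6 to 18 reads a library, a response in knockout cells was not detectable at this depth.

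Set against G3BP1 reads in the same library, the pseudogene did not keep 1 ratio. Wild-type libraries held 2.99 and 3.43 G3BP1P1 reads per 1000 G3BP1 reads, and G3BP1 rescue libraries 3.69 and 3.07. First-experiment knockout libraries held 5.93 and 6.47. The exact 95% Poisson intervals of the knockout libraries, 4.73 to 7.33 and 5.04 to 8.17, lay above those of the wild-type libraries, 2.26 to 3.88 and 2.62 to 4.42. These intervals cover counting error only.

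In untreated libraries of the second experiment the ratio was lower in rescued than in untransfected cells, and lower with wild-type G3BP1 than with the NTF2-deletion form. Knockout libraries held 5.14 and 4.13 per 1000, wild-type rescue 0.318 and 0.299, and NTF2-deletion rescue 1.48 and 1.59. With arsenite the rescues stood at 0.241 and 0.221 and at 1.39 and 1.499, and the knockout libraries at 1.98 and 5.44. The interval of the knockout library at 1.98 ran from 0.726 to 4.30 and covered the NTF2-deletion values. Beyond the knockout level, each 1000 added G3BP1 reads came with 0.287 and 0.266 added G3BP1P1 reads in wild-type rescue. In NTF2-deletion rescue they came with 1.46 and 1.57. Values under arsenite were 0.224 and 0.205, and 1.38 and 1.49. The intervals of both rescues were far apart, and the share of reads that the counting gave to the pseudogene in place of the transgene was not tested.

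**Figure D3:**
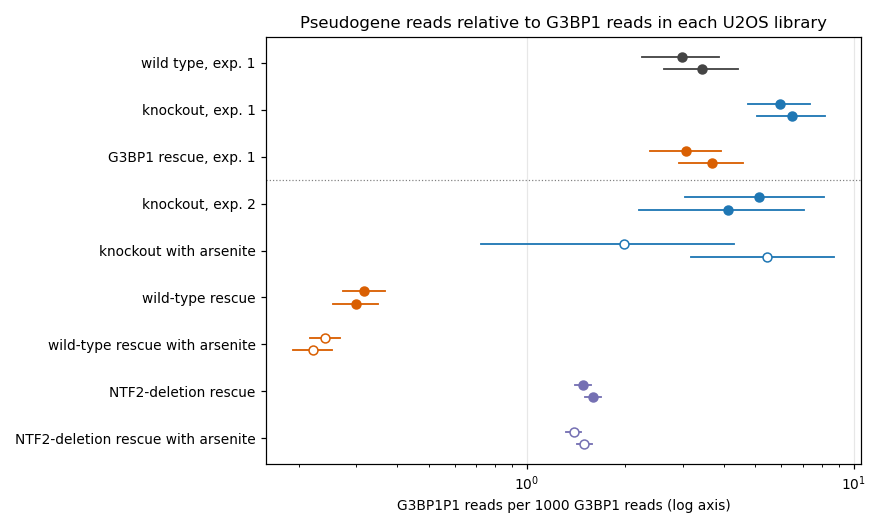
G3BP1P1 reads per 1000 G3BP1 reads (log axis) in each U2OS library, with exact 95% Poisson intervals as bars, open points where arsenite was given and a dotted line between the experiments. Wild-type rescue lies lowest (0.221 to 0.318), NTF2-deletion rescue between 1.39 and 1.59, and untransfected knockout cells, apart from 1 arsenite library at 1.98, between 4.13 and 6.47.

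RIP asked which RNAs came down with FLAG-G3BP1. In the authors' deposited table, G3BP1 RNA was higher in IP than in input by 0.47 (SE 0.13, adjusted p 0.000444) and G3BP2 RNA by 0.26 (SE 0.11, adjusted p 0.0325). Of all tested genes, 56.1% were called in that table and 24.7% higher. Both calls ended when Wald statistics were scaled down by their spread over genes (adjusted p 0.828 and 0.998). The median gene, over those at a base mean of 100 or more, stood at 0.12, and centred on it G3BP2 no longer passed, at 0.14 with an adjusted p of 0.271. G3BP1 reads here include the induced transgene, and the base mean was 13390 for G3BP1 and 1356 for G3BP2. Reads per library could not be worked out for these 2 genes in RIP. For G3BP1P1 they could, with 2, 7 and 3 reads in IP and 13, 13 and 8 in input. The authors' deposited table gave -1.29 for G3BP1P1 (SE 0.69, adjusted p 0.102), which did not pass.

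Proteins that bind G3BP or share its granules were followed as a list of 20 genes. In wild-type rescue against knockout, 17 of the 20 were called higher and 1 lower, with a median of 0.45 against -0.03 over all tested genes. Of all 20738 tested genes, 23.0% were called higher there and 42.1% in either direction. Tested genes include many with few reads, while the lowest base mean in the list was 606 (FXR2). Limma on the recovered reads, in a smaller set of 16654 genes, called 5980 higher and 5253 lower. The share of all tested genes is thus a low background for this list. USP10, a deubiquitinase that binds the NTF2-like domain, rose by 0.99 in the authors' deposited table. CAPRIN1, which binds the same domain and drives condensation with G3BP1, rose by 0.45, and UBAP2L, a granule scaffold, by 0.32 in the authors' deposited table. PABPC4, a poly(A)-binding protein, had the highest value, 1.13. TIA1, another RNA-binding granule protein, was the 1 called lower, at -1.16 in the authors' deposited table. NTF2-deletion rescue also had 17 higher and 1 lower, with a median of 0.48, where 22.8% of all genes were called higher and 41.5% in either direction. In this contrast limma called 5930 of 16654 genes higher and 5240 lower. There CAPRIN1 stood at 0.49, USP10 at 0.94 and UBAP2L at 0.37 in the authors' deposited table. All tested genes include those under the base mean limit for centring, and the median gene above it stood at 0.18 and 0.17. After centring on that median gene, the medians of the list were 0.28 with wild-type and 0.31 with NTF2-deletion rescue. Then 16 were higher in each rescue, with 2 and 1 lower. The scaling of Wald statistics that ended both G3BP2 calls in these tables was not applied to the list. How many of its calls would stand is thus not known. Both rescues are compared with the same knockout libraries. With arsenite, 17 were higher and 1 lower than in untreated knockout cells in each rescue, tables in which 44.9% and 43.0% of all genes were called. After centring these were 14 and 13 higher, with 1 lower in each.

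In the first experiment, knockout against G3BP1 rescue had 2 of the list higher and 10 lower in knockout cells, with a median of -0.12 against 0.01 over all tested genes, of which 37.6% were called. This contrast runs from rescue to knockout, the reverse of the second experiment's, and CAPRIN1 and USP10 were lower and TIA1 higher in knockout cells in both. ATXN2L went opposite ways, higher in knockout cells in the first (0.29) and higher in wild-type rescue in the second (0.45). UBAP2L did not pass in the first, at 0.01 in the authors' deposited table (adjusted p 0.862). Knockout against wild type had 9 higher and 3 lower with a median of 0.09, where 37.8% of all genes were called, UBAP2L among those higher at 0.37 in the authors' deposited table. Wild type against rescue had 2 higher and 16 lower with a median of -0.26, where 35.6% of all genes were called. By direction, limma on the recovered reads of 20655 genes called 4970 higher and 5820 lower in knockout against rescue. It called 5921 and 6102 in knockout against wild type, and 4847 and 5517 in wild type against rescue. After centring, the medians of the list were -0.07 in knockout against rescue, 0.09 in knockout against wild type and -0.22 in wild type against rescue. These 3 tables share libraries in pairs. Of the 20 genes, arsenite called 1 higher and 4 lower in knockout cells, 2 and 4 in wild-type rescue, and 2 and 3 in NTF2-deletion rescue. Of all tested genes, 19.4%, 20.4% and 8.57% were called in these tables. By direction, 10.9% were called lower in knockout cells, and 8.18% and 2.43% higher in the rescues. CAPRIN1 was lower in knockout cells with arsenite, at -0.20 in the authors' deposited table. USP10 passed in none of the 3 responses.

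In RIP, where both paralog RNAs were above 0, the RNAs of the list lay lower in IP. Of the 20, 15 were called lower and 2 higher in the authors' deposited table, with a median of -0.67 against -0.26 over all tested genes. Of all tested genes, 56.1% were called in either direction and 24.7% higher. PRRC2C was lowest at -3.18. CAPRIN1 stood at -0.48, UBAP2L at -0.56 and USP10 at -0.89 in the authors' deposited table. YTHDF1, a reader of N6-methyladenosine, and FXR1, a relative of FMRP, were the 2 called higher, at 0.41 and 0.35 in the authors' deposited table. After centring 15 were lower and 1 higher, and FXR1 no longer passed. The scaling of Wald statistics that ended both paralog calls in RIP was not applied to the list, so how many of its calls would stand is not known.

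**Figure D4:**
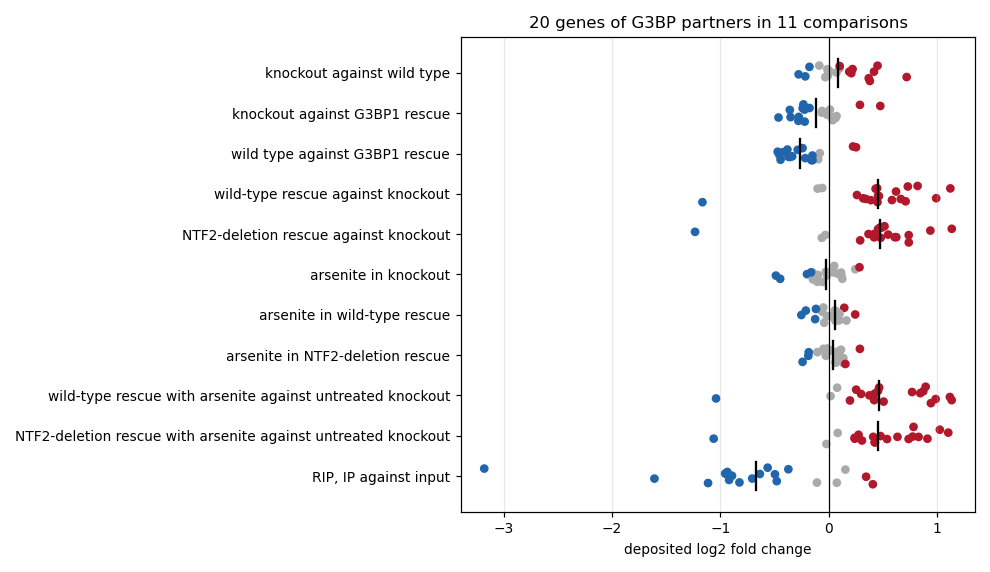
Log2 fold changes of the 20 partner genes in the authors' deposited tables. Each point is a gene, red if called higher, blue if called lower and grey if not called, the black ticks are medians, and the vertical scatter has no meaning. In all 4 rescue comparisons against untreated knockout cells 17 genes lie to the right as called and TIA1 to the left.

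Genes lying beside the targeted genes were read for the knockout contrast, taking on each side the 5 nearest whose base mean was 100 or more. Beside G3BP1, 2 of 10 were called higher and 3 lower in the authors' deposited table, with a median of -0.09. Its nearest neighbours were ATOX1 at -0.07 and FAM114A2 at -0.33. Beside G3BP2, 1 of 10 was called higher and 5 lower, with a median of -0.19. There 37.8% of all tested genes were called, and 19.4% of tested genes were called lower. USO1, a vesicle tethering factor next to G3BP2, stood at -0.60, ODAPH on its other side at -1.69 and AREG, which encodes the growth factor amphiregulin, at -4.14 in the authors' deposited table. G3BP1 at -0.56 lay within the range of its neighbours, -0.59 to 0.58, but below all of them except GALNT10 at -0.59. G3BP2 at -0.36 lay above AREG, PARM1 (-0.80), ODAPH and USO1 and below its other neighbours. Single genes set these ranges, so they cannot show whether the targeted genes changed apart from their stretch.

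Patterns like those of the 3 genes were sought over the 5 fold changes against untreated knockout cells of the second experiment. These 5 tables share the knockout libraries, and likeness was the root mean square difference, searched over 10476 genes whose base mean was 100 or more in every table. No gene came near G3BP1, with NAV3 closest at a distance of 3.67, followed by KLHL21 and FOSL1. NAV3 stood at 3.61 with wild-type G3BP1 and at 3.51 with the NTF2-deletion form in the authors' deposited tables. Many genes came near G3BP2, of which RNASEH1 was closest at 0.02, then SMAP2 and CACUL1 at 0.03. NAV3, KLHL21 and AMIGO2 were closest to G3BP1P1, at 1.55 to 1.68. By Pearson correlation over the same 5 values, none of these genes was among the nearest 3.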

How the data were processed

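The 18 U2OS and 6 RIP libraries were made with a directional kit from TRIzol-extracted poly-A RNA, per the labels' protocols. The submitters' processing notes name STAR and DESeq2 (2.11.40.6), with STAR 2.7.0f for RIP and the first experiment. The genome build, the annotation and whether counting used the strand are not given in the sources used here. The authors deposited 11 DESeq2 tables. Base means, as the authors deposited them, are a signal: reads over size factors, averaged across a table's libraries. Fold changes are deposited as log2 values that the authors' fit had pulled toward 0, with standard errors. Wald statistics are deposited as a score, and each deposited p-value and its adjusted form rest on that score. Read summary lines were left out.

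Base means are sums of whole reads divided by size factors, so reads per library were solved jointly over the tables that share libraries (lattice reduction, sympy 1.14.0). A single solution was found for 100% of 38466 genes with reads in the first experiment and of 38909 in the second. In these the base means were met within 1.41 rounding units. Solved libraries carry no replicate numbers. RIP averaged 12.2 M (1000000) normalised gene reads.

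Calls use an adjusted p under 0.05. For a difference between tables, the fold changes were subtracted and their squared standard errors added. The test was two-sided and normal, with Benjamini-Hochberg adjustment across genes at a base mean of 10 or more in each table. As alternatives added after seeing the data, limma 3.58.1 (R 4.3.3) was run on log2 of the reads plus 0.5, scaled by size factors, and ratios of RPM were taken. Further alternatives are listed in the closing section. Scripts were tested on simulated data. Genes named were the 3 genes, CAPRIN1, USP10, UBAP2L and, in the list, extremes chosen after their values were seen, the neighbours and the 3 nearest patterns. The genes, lists and tests were chosen with earlier results of these data known. The replicate count of 2 per U2OS group limits precision. One cell line marker is not reported here.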

Additional observations from a re-analysis of the deposited data

Results flagged for a closer look

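The change of G3BP1 reads with arsenite differed with and without supplied G3BP1. On the log2 scale it differed by 0.61 between wild-type rescue and knockout cells and by 0.47 between NTF2-deletion rescue and knockout cells. Most G3BP1 reads of the rescues lay beyond the knockout level, and transgene and endogenous reads were not parted. The fall in knockout cells, -0.24, did not pass with Wald statistics scaled down by their spread over genes. The rescue contrast differed between the second and the first experiment for all 3 genes. The difference was 6.62 for G3BP1, 0.30 for G3BP2 and 3.23 for G3BP1P1 (adjusted p 5.97e-12, difference test). That of G3BP2 did not pass after centring.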

How the results depend on the processing

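No paired analysis was possible because the deposited tables carry no replicate numbers and the solved reads cannot be tied to them, so the replicate block was not run.

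Real changes widen the spread of Wald statistics over genes, so scaling by it is strict where many genes change. Wald statistics scaled down by that spread ended 7 calls. In RIP these were G3BP1, at 0.47 with an adjusted p of 0.828, and G3BP2, at 0.26 with 0.998. In the first experiment they were G3BP2 at -0.25 in knockout against rescue (0.175) and G3BP1 at -0.15 in wild type against rescue (0.510). In the second they were G3BP2 at 0.55 and 0.57 in the 2 untreated rescues and G3BP1 at -0.24 in knockout cells with arsenite (0.256). Centring ended the call of G3BP2 in RIP (0.14) and made that of G3BP2 in wild type against rescue (0.14), as limma did (0.12). Centring also ended the second minus first rescue difference of G3BP2 (0.17). Limma called G3BP1P1 lower with arsenite in knockout cells (-0.71).

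Ratios of RPM moved values by more than the spread between libraries. For G3BP1 they gave -0.65 in knockout against rescue, -0.081 in wild type against rescue, 7.08 and 7.49 in wild-type and NTF2-deletion rescue, and 7.45 and 7.72 in the same rescues with arsenite against untreated knockout. For G3BP2 they gave -0.22 and 0.16 in the first 2 of these, 0.31 and 0.31 in the rescues, 0.056 with arsenite in knockout cells, and 0.41 and 0.40 in the rescues with arsenite. Ratios of group means for G3BP1P1 were 3.41 and 6.17 in the rescues and 3.43 and 6.33 in the rescues with arsenite.

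Leaving out 1 library at a time, over ratios of means and limma together, G3BP1 ran from -0.60 to -0.52 in knockout against wild type, from -0.70 to -0.67 in knockout against rescue, from -0.18 to -0.089 in wild type against rescue and from -0.28 to -0.21 with arsenite in knockout cells. G3BP2 ran from 0.052 to 0.16 in wild type against rescue. G3BP1P1 ran from 5.97 to 6.32 in NTF2-deletion rescue and from -1.50 to 0.023 with arsenite in knockout cells. Its arsenite difference from knockout cells ran from -0.034 to 1.40 for wild-type and from 0.14 to 1.58 for NTF2-deletion rescue. The highest values, which passed, were those without the library with 17 reads.

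With the 3 genes left out of the totals, mean RPM levels became 55333, 165 and 84.9 for G3BP1, G3BP2 and G3BP1P1 in NTF2-deletion rescue, and 65549 and 177 for G3BP1 and G3BP2 with arsenite. In wild-type rescue they became 40863 and 163, and with arsenite 53764, 177 and 12.4. At an adjusted p under 0.01, 2 of the partner genes remained called with arsenite in knockout cells. The Pearson measure shared 0 of 3 nearest genes for each gene. Other base mean limits, undone shrinkage and adjustment over genes at a base mean of 10 or more changed no call. Depth limits G3BP1P1 in knockout cells and in RIP, where single reads move its values.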
